A study of Mus musculus with 45 samples.

Results

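The transcriptome of MYAZ12_3i_NDI1 cells was compared with that of their parent line MYAZ12_3i, using 6 of the 45 RNA-sequencing libraries of the series. The libraries were taken by their cell line and medium labels and comprised every library of either cell line in control medium, 3 for MYAZ12_3i_NDI1 (the NDI1 line) and 3 for MYAZ12_3i (the parent). MYAZ12_3i is a primary mouse cell line isolated from a mammary gland tumour of an MMTV-cMYC mouse, in which the cMYC oncogene is driven by the mouse mammary tumour virus promoter, so both groups carry that transgene. The NDI1 line is named by the labels as this line with NDI1. Both were plated in 6-well dishes with 250000 cells to a well in supplemented DMEM:F12 with serum, insulin, hydrocortisone and EGF and, by their labels, received fresh control medium after 24 h for 6 h. The study's methods name that change of medium for other lines only. Neither group was treated with cysteine/cystine-free medium.

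NDI1 is the yeast internal NADH dehydrogenase, a single polypeptide of the inner mitochondrial membrane that passes electrons from NADH to ubiquinone without pumping protons. In mammalian cells that task belongs to complex I, a multi-subunit machine whose subunits are encoded partly by nuclear and partly by mitochondrial DNA. Expression of NDI1 is a widely used way to restore NADH oxidation and electron entry into the respiratory chain where complex I fails. The mitochondrial NAD+/NADH ratio bears on aspartate, serine and nucleotide synthesis, and respiratory chain defects are known to engage the integrated stress response, in which phosphorylation of eIF2α favours translation of the transcription factor ATF4.

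Each library held between 20542717 and 25597159 counts on 28454 listed genes, of which 21752 had a count in at least 1 of the 6 libraries and 12841 were tested. The NDI1 sequence is not a mouse gene and was not among the listed genes, so the transgene itself could not be checked in these counts. The study methods did not describe how the NDI1 line was made, each group was 1 cell line, and no line carrying an empty vector was among the labelled samples. NDI1 expression, selection and separate passage of the line therefore cannot be told apart. The series text calls the 3 samples of each line technical replicates, so every p-value below measures the spread between 3 wells of a line. Xist was detected in all 6 libraries, at 11895 to 17312 counts, and Kdm5d and Uty had 0 counts in all of them. Xist was lower in the NDI1 line, at 574 ± 33.5 CPM against 719 ± 12.1 CPM (SD, n = 3, log2 fold change -0.33 ± 0.036, adjusted p = 3.77e-05). Myc, which includes reads of any transgene sharing its sequence, was at 556 ± 5.69 CPM against 608 ± 15.1 CPM (SD, n = 3; log2 fold change -0.13 ± 0.027, adjusted p = 0.00449). Krt8, Krt18 and Gata3 of the mammary luminal programme were well detected, whereas Epcam had at most 9 counts and Cdh1, Cldn3, Cldn4 and Cldn7 at most 4 counts in any library, and Elf5 had 0. Vim, a mesenchymal filament, stood at 2680 ± 33.7 CPM against 2877 ± 62.8 CPM. In cultured bulk RNA of this kind, fewer cells of a state and less RNA per cell cannot be told apart.

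At the level of the whole transcriptome the lines were close. The root-mean-square difference in log2 CPM (counts scaled to a common library total) over 13899 genes was 0.414 to 0.453 between a parent and an NDI1 library, against 0.368 to 0.392 within the parent and 0.384 to 0.403 within the NDI1 line. The nearest other tumour line, MYAZ6_6g, was 0.570 to 0.587 from the parent. Still, 2236 of the 12841 genes differed at an adjusted p under 0.05 (quasi-likelihood F test of edgeR, Benjamini-Hochberg over all tested genes) and are referred to as called. They were 17.4% of the genes tested, with 1045 higher (8.14%) and 1191 lower (9.27%) in the NDI1 line. Of the called genes, 2201 had no overlap between the CPM of the groups, which largely follows from being called and adds no separate support. Most changes were small. The median absolute log2 fold change of called genes was 0.19, and 1590 of them changed by less than 1.2-fold, against 219 that changed by over 1.5-fold (98 higher, 121 lower) and 89 by over 2-fold (49 higher, 40 lower). The number of calls depended on which well was left out. Without parent replicate 1, 2 or 3, 1475, 1480 and 1243 genes were called. Without NDI1 replicate 1, 2 or 3, 1557, 1492 and 2209 were called, and 949 of the 2236 calls were made in the same direction in all 6 of these fits.

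**Figure D1:**
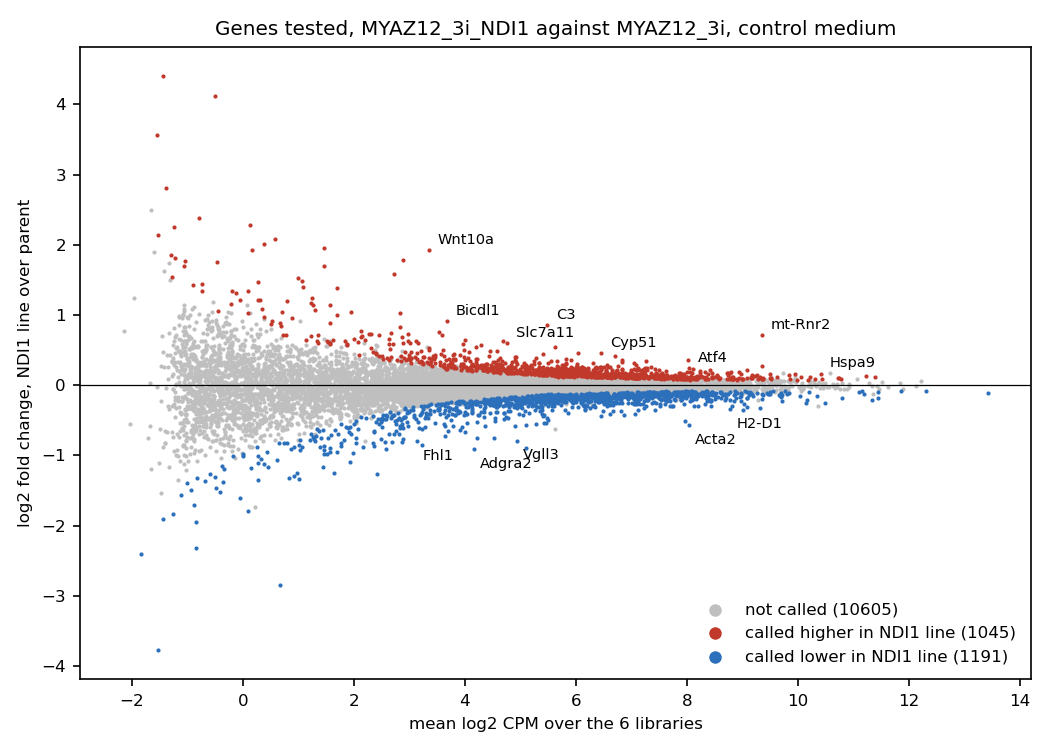
Log2 fold change of the NDI1 line over the parent (vertical axis) against mean log2 CPM over the 6 libraries (horizontal axis), each point 1 of 12841 tested genes. The 1045 genes called higher (red) and 1191 called lower (blue) lie close to 0 at high expression, and Wnt10a and mt-Rnr2 stand apart from genes at their level.

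The naming rule took called genes that averaged 3 or more on the log2 CPM scale and whose groups did not overlap. Their separation is thus no further evidence. Of those named, the largest increase was in Wnt10a, which encodes a secreted Wnt ligand active in mammary and skin epithelium. Wnt10a was at 5.24, 6.04 and 4.41 CPM in the parent and 20.2, 18.2 and 20.8 CPM in the NDI1 line. The difference was 3.79-fold (log2 fold change 1.92 ± 0.10, adjusted p = 3.89e-08). Its neighbour Wnt6, another Wnt ligand, described here for its position, was at 0.512, 0.519 and 0.531 CPM in the parent and 2.25, 1.76 and 1.98 CPM in the NDI1 line, and rose to the same extent from a low level (log2 fold change 1.92 ± 0.28, adjusted p = 0.000344). The genes lie head to tail on the plus strand of chromosome 1 in GRCm38, Wnt6 at chr1:74771892-74785322 and Wnt10a at chr1:74791516-74804179, 6193 bases apart with 0 annotated genes between them. Wnt7b, a Wnt ligand encoded on chromosome 15, rose as well and was at 8.27, 8.44 and 9.72 CPM in the parent and 13.6, 15.9 and 15.1 CPM in the NDI1 line (log2 fold change 0.76 ± 0.092, adjusted p = 8.76e-05). Across the other 9 control lines the median Wnt10a level, scaled over all 33 control libraries, ran from 0.0445 CPM in Myc310 to 25.3 CPM in LM2, so the level in the NDI1 line was within the range of the panel.

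The other genes that the naming rule took as the largest increases were spread over several functions. C3, the central component of complement, was at 34.7, 31.5 and 33.7 CPM in the parent and 60.0, 56.0 and 65.1 CPM in the NDI1 line, a 1.81-fold rise (log2 fold change 0.86 ± 0.057, adjusted p = 3.44e-07). Bicdl1, an adaptor of dynein-driven transport, rose 1.88-fold (log2 fold change 0.91 ± 0.10, adjusted p = 2.73e-05). The T-box transcription factor gene Eomes (0.71 ± 0.086 log2), the semaphorin and VEGF co-receptor gene Nrp1 (0.63 ± 0.10), the small GTPase regulator Arap3 (0.65 ± 0.081), the arginine deiminase gene Padi1 (0.63 ± 0.065), Enpp4 of the ectonucleotidase family (0.61 ± 0.10) and Hhip, an antagonist of hedgehog ligands (0.60 ± 0.10), each rose by 1.51- to 1.64-fold with adjusted p of at most 0.00102. Slc7a11 and the mitochondrial 16S rRNA gene mt-Rnr2 completed the group and are described below.

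The 12 largest decreases under the same naming rule also covered varied functions. Adgra2, an adhesion G protein-coupled receptor gene that acts in Wnt7 signalling, was at 23.6, 24.6 and 25.1 CPM in the parent and 11.974, 13.5 and 13.3 CPM in the NDI1 line, or 0.531 times the parent (log2 fold change -0.91 ± 0.070, adjusted p = 1.53e-06). Vgll3, a cofactor of TEAD transcription factors, was at 39.0, 41.1 and 40.9 CPM in the parent and 21.3, 24.4 and 24.1 CPM in the NDI1 line (log2 fold change -0.79 ± 0.059, adjusted p = 1.34e-06). The RNA-binding regulator of smooth muscle splicing Rbpms (-0.85 ± 0.10), the LIM protein gene Fhl1 (-0.80 ± 0.11), the dystrophin-complex gene Dtna (-0.76 ± 0.075) and Tagln, encoding the actin-binding protein transgelin (-0.72 ± 0.094), fell as well. Also lower were Pmepa1, a TGF-β-induced inhibitor of SMAD signalling (-0.65 ± 0.12), Pbxip1 (-0.66 ± 0.080), the chloride channel accessory gene Clca3a1 (-0.64 ± 0.091), Syt12 of the synaptotagmin family (-0.62 ± 0.11), the orphan receptor gene Gpr176 (-0.61 ± 0.10) and Ifi27, an interferon-induced gene of the mitochondrial membrane (-0.74 ± 0.076). The adjusted p of these 10 genes was at most 0.00176.

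Below that limit of a mean log2 CPM of 3, a few genes that were almost silent in the parent were detected in every NDI1 well. These genes were chosen after their values were seen. Gjc1, encoding the gap junction protein connexin 45, had 4, 1 and 4 counts in the parent and 48, 62 and 59 in the NDI1 line. Pcsk6, a proprotein convertase that activates secreted precursors, had 0, 1 and 2 counts against 19, 27 and 28. Per sequenced count these were 18.2-fold (95% interval 9.35 to 40.4, counting error only) and 23.9-fold (7.86 to 118.4) higher, given as a description with no test. The transcription factor gene Gata4 had 14, 15 and 12 counts against 64, 60 and 48 (log2 fold change 2.02 ± 0.29, adjusted p = 0.000326). At moderately low levels, the secreted neuronal protein gene Lgi2 was at 4.14, 3.87 and 3.76 CPM in the parent and 12.9, 13.1 and 14.3 CPM in the NDI1 line (log2 fold change 1.78 ± 0.10, adjusted p = 7.87e-08). The gelatinase gene Mmp9 was at 3.75, 3.82 and 3.72 CPM in the parent and 10.7, 12.2 and 10.9 CPM in the NDI1 line (log2 fold change 1.58 ± 0.11, adjusted p = 5.72e-07). These rises were 3.43- and 2.99-fold, and neither gene overlapped between lines. The chemokine gene Ccl9 (1.69 ± 0.19), the leukocyte adhesion ligand gene Icam1 (1.52 ± 0.22) and the deiminase gene Padi4 (1.38 ± 0.17) rose in the same way. In the opposite direction, Agt, the angiotensin precursor, fell from 46, 36 and 45 counts to 9, 11 and 18 (log2 fold change -1.79 ± 0.30, adjusted p = 0.000922). No gene went from 3 or fewer counts in every well of a line to 50 or more in every well of the other.

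The nuclear-encoded respiratory chain was almost level between the lines. Of 79 tested nuclear subunits of complexes I to IV and the ATP synthase, 9 were called (11.4%, against 17.4% of all genes), 2 higher and 7 lower, and their median log2 fold change was 0.0006, against 0.0008 over all genes. The largest absolute log2 fold change among the 79 was 0.17. For 75 of them the 95% interval lay within 1.2-fold in either direction, and for all 79 within 1.5-fold. In complex I, the enzyme whose reaction NDI1 bypasses, 1 of 37 subunits was called. This was Ndufv2, an iron-sulphur subunit of the NADH-binding module, at 96.7, 99.3 and 96.5 CPM in the parent and 91.7, 92.2 and 87.4 CPM in the NDI1 line (log2 fold change -0.11 ± 0.036, adjusted p = 0.0499). It did not pass in any of the 6 fits that left out a well (adjusted p up to 0.161) nor in DESeq2, which called 0 of the 37. Ndufv1, which binds NADH and FMN, was at 112 ± 4.25 CPM against 107 ± 3.20 CPM (log2 fold change 0.06 ± 0.038, adjusted p = 0.28), and Ndufs1 at 142 ± 5.41 CPM against 147 ± 1.91 CPM (-0.04 ± 0.033, adjusted p = 0.411). The intervals of 34 of the 37 subunits lay within 1.2-fold. Summed over complex I subunits, expression was 2193 to 2265 CPM in the parent and 2128 to 2287 CPM in the NDI1 line.

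Among the remaining complexes, the calls were small and mostly lower. In complex II, Sdhc (log2 fold change -0.16 ± 0.037, adjusted p = 0.00772) and Sdhd (log2 fold change -0.13 ± 0.035, adjusted p = 0.0187), its membrane anchors, were lower. In complex III, Uqcrc1, a core subunit, was at 269, 269.6 and 264 CPM in the parent and 247, 242 and 239 CPM in the NDI1 line (log2 fold change -0.14 ± 0.026, adjusted p = 0.0021). The Rieske iron-sulphur subunit Uqcrfs1 was higher (log2 fold change 0.15 ± 0.039, adjusted p = 0.0178). In complex IV, Cox5a was lower (log2 fold change -0.16 ± 0.033, adjusted p = 0.00506) and Cox6c higher (log2 fold change 0.10 ± 0.032, adjusted p = 0.0445). The ATP synthase subunits Atp5d (-0.10 ± 0.032) and Atp5g2 (-0.13 ± 0.037) were lower. Sdhc, Uqcrc1 and Cox5a passed in each of the 6 fits without a well, and the other 6 subunits did not (adjusted p up to 0.161). The number of nuclear subunits called was 4, 3 and 5 without parent replicate 1, 2 or 3, and 9, 4 and 14 without NDI1 replicate 1, 2 or 3, with 10 of those 14 higher.

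**Figure D2:**
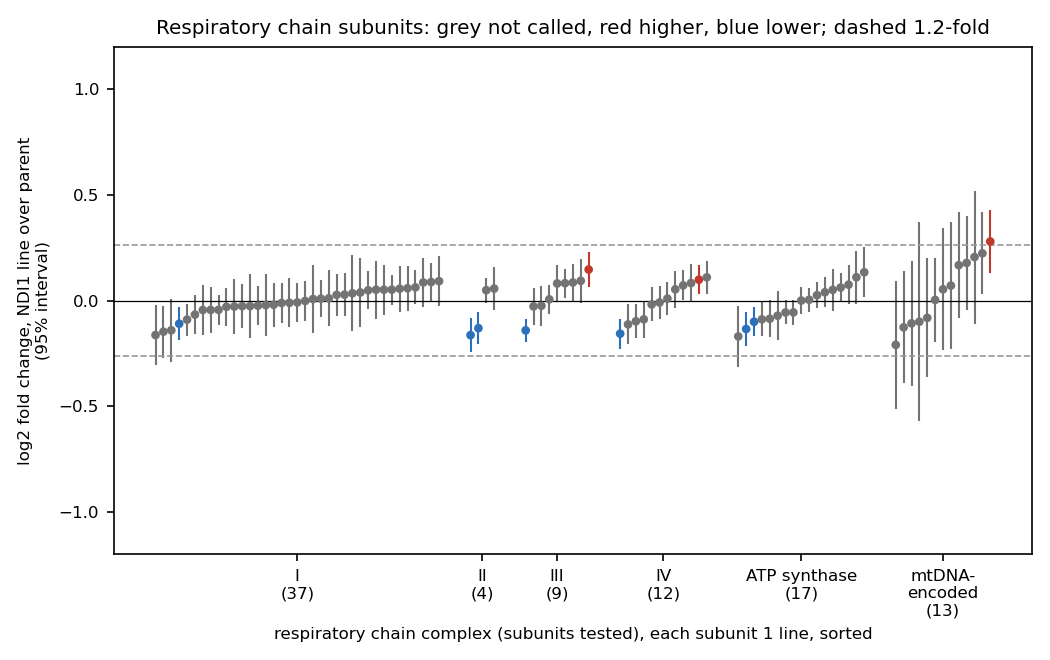
Log2 fold change of the NDI1 line over the parent with its 95% interval for each tested respiratory chain subunit, sorted within complexes I to IV, the ATP synthase and the 13 mitochondrially encoded subunits; dashed lines mark 1.2-fold. Nuclear subunits lie within an absolute log2 fold change of 0.17, with 9 of 79 called, and the mitochondrially encoded subunits have wider intervals.

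The summed level of mitochondrially encoded mRNAs varied more between wells than between lines. Their share of all counts was 0.998%, 0.773% and 1.11% in the parent and 1.16%, 0.833% and 0.928% in the NDI1 line. The means were 0.960 ± 0.171% and 0.974 ± 0.169% (SD, n = 3), which an exact two-sided permutation test did not separate (p = 1, where 0.1 is the smallest p that 3 against 3 allows). Of the 13 genes, mt-Co3, a core subunit of cytochrome oxidase, was called higher, at 519, 683 and 597 CPM in the parent and 784, 716 and 684 CPM in the NDI1 line (log2 fold change 0.28 ± 0.069, adjusted p = 0.0123). It did not pass without parent replicate 1 or 3 or NDI1 replicate 1 (adjusted p up to 0.0628) nor in DESeq2, which called 0 of the 13. That 1 of 13 (7.69%) stands against 17.4% of all genes. The count rested on the settings, since 4 of the 13 were called with the replicate number as a block, all higher. Without the expression filter 9 were called, 5 of them higher, where 2485 of 21752 genes were called. The 16S rRNA gene mt-Rnr2 was at 519, 403 and 628 CPM in the parent and 929.8, 735 and 879.6 CPM in the NDI1 line, and was called higher (log2 fold change 0.71 ± 0.11, adjusted p = 0.000514). The libraries were selected for polyadenylated RNA, and the share of counts on mitochondrial rRNA was 0.115 ± 0.0131% against 0.0744 ± 0.0150% (exact permutation p = 0.1, the smallest possible).

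Of 16 tested complex I assembly factors 2 were called (12.5%, against 17.4% of all genes). Nubpl, which delivers iron-sulphur clusters, was lower (log2 fold change -0.36 ± 0.10, adjusted p = 0.0215) and Ndufaf2 higher (log2 fold change 0.36 ± 0.11, adjusted p = 0.0273). Each lost its call in at least 3 of the 6 fits without a well (adjusted p up to 0.0745 and 0.111). Among 27 genes for NADH shuttles and NAD-linked mitochondrial enzymes, 4 were called, all higher (14.8%, against 17.4% of all genes and 8.14% higher), with a median log2 fold change of 0.04. Aifm1, a mitochondrial flavoprotein that oxidises NADH and is needed for complex I biogenesis, was at 50.9, 54.7 and 53.7 CPM in the parent and 69.7, 68.3 and 67.4 CPM in the NDI1 line, and the groups were fully separated (log2 fold change 0.37 ± 0.042, adjusted p = 4.78e-05). Me2, the mitochondrial NAD-dependent malic enzyme, rose 1.16-fold (log2 fold change 0.22 ± 0.037, adjusted p = 0.000948). The mitochondrial NAD kinase gene Nadk2 (0.22 ± 0.057) and Gpd2, which feeds electrons from glycerol 3-phosphate to ubiquinone (0.16 ± 0.041), were also higher, and both lost their calls without parent replicate 3 (adjusted p = 0.0896 and 0.101). Of the 27, 2 were called without parent replicate 3 and 7 without NDI1 replicate 3. In the tricarboxylic acid cycle 5 of 24 genes were called, 2 higher and 3 lower (20.8%, against 17.4%), with a median of -0.06. The count was 2, 2 and 1 without parent replicate 1, 2 or 3, and 3 without NDI1 replicate 2 or 3. The median ran from -0.05933 to -0.03678 in the fits without a well. Among regulators of mitochondrial biogenesis 2 of 15 were called, 1 in each direction (13.3%, against 17.4%), with 1 called in DESeq2 and in each fit without a well other than that without parent replicate 1.

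Most integrated stress response genes that were called were higher. Of 30 genes tested, 12 were called (40.0%, against 17.4%), 11 higher (36.7%, against 8.14%) and 1 lower, with a median log2 fold change of 0.10, and 8 of the 12 calls were made in all 6 fits without a well. Atf4, the central transcription factor of the response, was at 247, 241 and 239 CPM in the parent and 291, 289 and 281 CPM in the NDI1 line, which is a 1.18-fold increase with a narrow spread (log2 fold change 0.24 ± 0.027, adjusted p = 4.29e-05). Chac1, whose product degrades glutathione, was at 5.50, 4.43 and 4.61 CPM in the parent and 7.53, 7.73 and 7.77 CPM in the NDI1 line (log2 fold change 0.66 ± 0.12, adjusted p = 0.0017). Slc7a11, encoding the xCT subunit of the cystine/glutamate antiporter, was at 20.0, 22.2 and 23.7 CPM in the parent and 32.3, 34.8 and 33.2 CPM in the NDI1 line, 1.52-fold higher (log2 fold change 0.60 ± 0.065, adjusted p = 3.56e-05). The level in the NDI1 line was the highest of the 11 control lines, whose other medians ran from 8.81 CPM in LM2_LM to 22.0 CPM in the parent (scaled over 33 libraries). Sesn2, an inhibitor of mTORC1 signalling (log2 fold change 0.50 ± 0.077, adjusted p = 0.000524), Mthfd2, the mitochondrial folate enzyme (log2 fold change 0.42 ± 0.038, adjusted p = 8.63e-06), Ddit4, another mTORC1 inhibitor (log2 fold change 0.34 ± 0.042, adjusted p = 0.000104), and Ppp1r15a, the phosphatase subunit that dephosphorylates eIF2α (log2 fold change 0.33 ± 0.065, adjusted p = 0.00319), rose too. Trib3 (0.33 ± 0.087), Cebpg (0.13 ± 0.039), Slc7a1 (0.11 ± 0.029) and Slc38a2 (0.08 ± 0.026) were called higher in the fit of all wells, but each lost its call without parent replicate 2 (highest adjusted p 0.149) and some without other wells.

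The response was uneven among its members. Atf5, a transcription factor related to ATF4, was lower, at 182, 183 and 179.9 CPM in the parent and 157, 157 and 143 CPM in the NDI1 line (log2 fold change -0.25 ± 0.035, adjusted p = 0.000256). Asns, the asparagine synthetase gene, was at 248, 251 and 261 CPM in the parent and 236, 254 and 235 CPM in the NDI1 line, with overlapping wells (log2 fold change -0.07 ± 0.034, adjusted p = 0.183). The serine synthesis genes Phgdh (-0.02 ± 0.037, adjusted p = 0.777) and Psat1 (0.06 ± 0.030, adjusted p = 0.198), the mitochondrial serine hydroxymethyltransferase gene Shmt2 (0.04 ± 0.028, adjusted p = 0.319) and Ddit3, encoding CHOP (0.11 ± 0.16, adjusted p = 0.673), were not called. Fgf21, Gdf15 and Slc7a3 were too low to test. Without NDI1 replicate 2, Asns was called lower (adjusted p = 0.0424), and without NDI1 replicate 3, Psat1 was called higher (adjusted p = 0.0217).

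The cytosolic aminoacyl-tRNA synthetases, which charge tRNAs with amino acids and include known ATF4 targets, were higher wherever they were called. Of 20 tested, 10 were called, all higher (50%, against 8.14% of all genes), with a median log2 fold change of 0.08 over the 20. Cars, the cysteinyl-tRNA synthetase gene, rose most, at 90.5, 88.9 and 90.0 CPM in the parent and 107, 106 and 111 CPM in the NDI1 line (log2 fold change 0.27 ± 0.035, adjusted p = 0.00015). Hars (0.22 ± 0.034), Iars (0.17 ± 0.031), Yars (0.17 ± 0.038), Rars (0.14 ± 0.031) and Mars1 (0.14 ± 0.032) also rose by 1.10- to 1.16-fold. Aars (log2 fold change 0.12 ± 0.029, adjusted p = 0.0107) and Tars (log2 fold change 0.11 ± 0.030, adjusted p = 0.0242) were called as well. Without parent replicate 3, 6 of the 20 were called, and Aars and Tars were not among them (adjusted p = 0.0812 and 0.0706). Wars1 and Farsb, with log2 fold changes of -0.07 and -0.06, were not called.

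The sequence TGATGCAA, the composite element bound by ATF4 with C/EBP partners, was searched on both strands in the 250 bases upstream of RefSeq starts (GRCm38.p6). It was present for 248 of 27025 genes (0.918%), 6 of 27 integrated stress response members with a promoter sequence, and 2 of 13 synthetases. The promoters of Slc7a11 (chr3:50443614-50443863, minus strand), Chac1 (chr2:119350992-119351241, plus strand), Aars (chr8:111033592-111033841, plus strand) and Tars (chr15:11399659-11399908, minus strand) are shown because these are the members of either list that were called higher and hold the element. They are written 5′ to 3′ on the strand of the gene up to the base before the start, with the matches in capitals, and TTGCATCA is the same element on the opposite strand.
Slc7a11: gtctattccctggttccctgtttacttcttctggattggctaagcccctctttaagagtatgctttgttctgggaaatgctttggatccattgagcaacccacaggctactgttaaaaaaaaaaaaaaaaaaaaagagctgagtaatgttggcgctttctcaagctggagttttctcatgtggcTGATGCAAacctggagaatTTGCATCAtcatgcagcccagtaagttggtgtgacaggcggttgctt
Chac1: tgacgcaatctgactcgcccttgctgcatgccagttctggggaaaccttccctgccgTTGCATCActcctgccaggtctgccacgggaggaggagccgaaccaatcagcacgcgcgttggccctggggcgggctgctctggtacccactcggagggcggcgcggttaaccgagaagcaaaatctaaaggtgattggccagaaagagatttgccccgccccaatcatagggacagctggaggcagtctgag
Aars: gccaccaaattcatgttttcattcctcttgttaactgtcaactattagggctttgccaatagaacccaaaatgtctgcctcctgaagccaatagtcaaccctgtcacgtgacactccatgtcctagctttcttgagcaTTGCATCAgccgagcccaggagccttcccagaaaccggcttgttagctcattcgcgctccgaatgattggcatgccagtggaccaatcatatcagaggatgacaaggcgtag
Tars: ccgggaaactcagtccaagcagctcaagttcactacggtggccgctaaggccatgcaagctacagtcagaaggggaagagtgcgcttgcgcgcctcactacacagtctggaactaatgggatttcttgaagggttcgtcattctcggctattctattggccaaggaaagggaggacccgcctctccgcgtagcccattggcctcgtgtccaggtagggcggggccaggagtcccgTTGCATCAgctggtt
Slc7a11 held the element 2 times, once on each strand, and the other 3 promoters held it 1 time each. The members Atf3, Nupr1, Pycr1 and Vldlr also held the element and were not called, and Mthfd2 and Sesn2 rose without a match in this window.

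**Figure D3:**
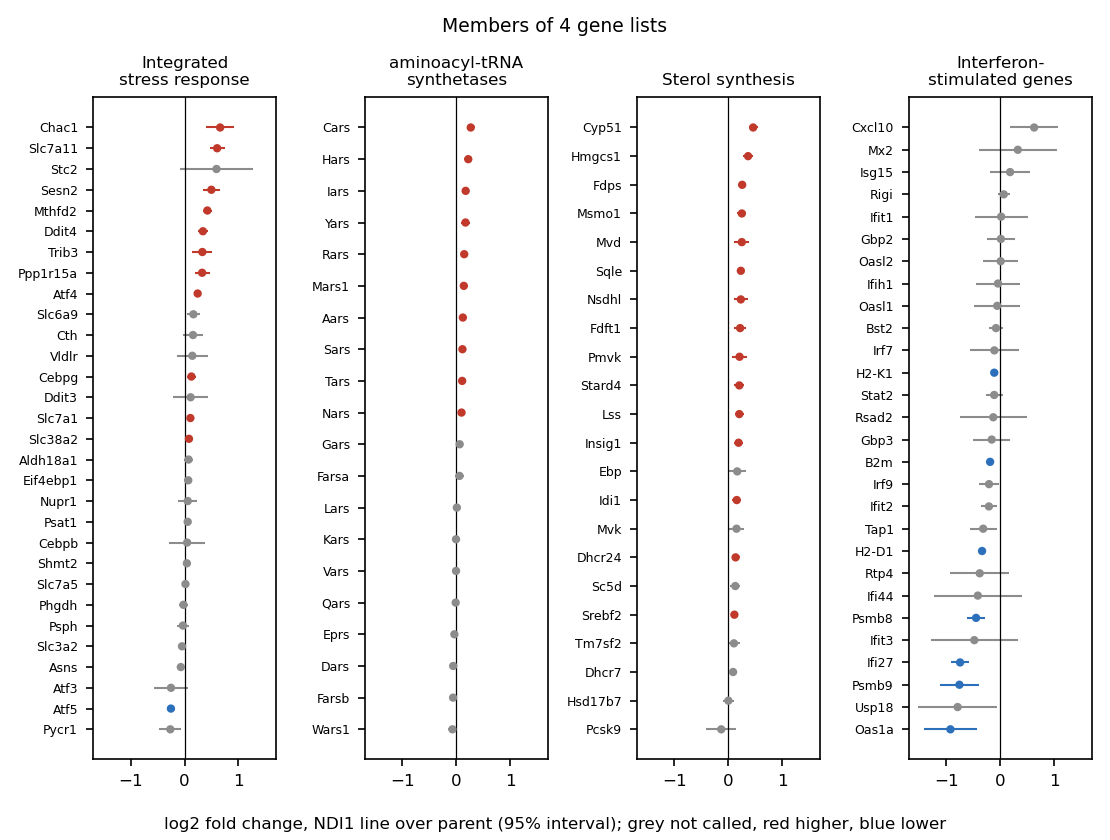
Log2 fold change of the NDI1 line over the parent with its 95% interval (horizontal axis) for most tested members of 4 gene lists, the integrated stress response, the cytosolic aminoacyl-tRNA synthetases, sterol synthesis and interferon-stimulated genes. Called members are red (higher) or blue (lower); every called sterol synthesis gene drawn is higher and every called interferon-stimulated gene drawn is lower.

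Enzymes of amino acid and one-carbon synthesis did not move as a block. Of 18 serine, glycine and one-carbon genes 6 were called (33.3%, against 17.4% of all genes), 4 higher and 2 lower, with a median log2 fold change of 0.02. Mthfd2 was higher as given above, and so was Tyms, the thymidylate synthase (log2 fold change 0.17 ± 0.037, adjusted p = 0.00564). Aldh1l2, the mitochondrial enzyme that oxidises 10-formyl-tetrahydrofolate and yields NADPH, went the other way. It was at 44.9, 47.2 and 48.6 CPM in the parent and 30.7, 35.3 and 30.0 CPM in the NDI1 line, with every NDI1 well below every parent well (log2 fold change -0.55 ± 0.059, adjusted p = 3.56e-05). Mthfd1 was lower by a small margin (log2 fold change -0.09 ± 0.028, adjusted p = 0.0413), which was lost in all 6 fits without a well (adjusted p up to 0.158).

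Of 20 enzymes of aspartate, asparagine, glutamine and proline metabolism 6 were called (30.0%, against 17.4% of all genes), 2 higher and 4 lower, with a median log2 fold change of -0.02, and all 6 calls held in each fit without a well. Ass1, which consumes aspartate to make argininosuccinate, was at 23.9, 25.6 and 26.1 CPM in the parent and 21.0, 18.2 and 18.2 CPM in the NDI1 line and did not overlap between lines (log2 fold change -0.40 ± 0.071, adjusted p = 0.00136). The glutamine synthetase gene Glul (log2 fold change -0.17 ± 0.027, adjusted p = 0.000686) and the glutamate dehydrogenase gene Glud1 (log2 fold change -0.13 ± 0.029, adjusted p = 0.00769) were lower as well. Bcat1, the cytosolic branched-chain aminotransferase, rose (log2 fold change 0.29 ± 0.045, adjusted p = 0.000484), and so did Pycrl, of the last step of proline synthesis (log2 fold change 0.22 ± 0.050, adjusted p = 0.00815). Of 19 tested amino acid transporters 3 were called (15.8%, against 17.4%), Slc7a1 and Slc38a2 higher and Slc7a6 lower with a log2 fold change of -0.14, and 0 of the 3 calls were made in all 6 fits without a well, while 5 were called with all 33 control libraries. Slc7a11, the cystine transporter gene given above, was kept in other lists and is not among the 19. Of 12 pyrimidine synthesis genes 4 were called (33.3%), Nme1 (0.24), Tk1 (0.22) and Rrm1 (0.12) higher and Uck2 (-0.14) lower on the log2 scale.

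Glutathione synthesis, the pathway downstream of cystine import, was near the background. Of 21 glutathione and transsulfuration genes 4 were called (19.0%, against 17.4%), 3 higher, namely Slc7a11, Chac1 and Ahcy (0.12 ± 0.036), and 1 lower, Gpx1 (-0.11 ± 0.030). The calls of Ahcy and Gpx1 were lost in 4 of the 6 fits without a well (adjusted p up to 0.15 and 0.083), and 2 of the 21 were called without parent replicate 1 or 3. The genes of γ-glutamylcysteine and glutathione synthesis were not called. Gclc was at 121 ± 6.03 CPM against 126 ± 2.19 CPM (log2 fold change -0.05 ± 0.038, adjusted p = 0.368) and Gss at 50.9 ± 1.15 CPM against 48.5 ± 0.104 CPM (0.07 ± 0.041, adjusted p = 0.266). Gclm was lower in every NDI1 well (-0.11 ± 0.039) and missed the threshold (adjusted p = 0.0601), but passed without NDI1 replicate 3 (adjusted p = 0.019). The glutathione reductase gene Gsr (0.05 ± 0.035, adjusted p = 0.324) and the transsulfuration genes Cbs (-0.21 ± 0.20, adjusted p = 0.509) and Cth (0.16 ± 0.087, adjusted p = 0.238) were not called either, and Cbs had at most 62 counts in a library. Of 26 targets of NRF2, the antioxidant transcription factor, 8 were called (30.8%, against 17.4%), 4 higher and 4 lower, and 5 without parent replicate 1 or NDI1 replicate 1 or 2. The oxidative pentose phosphate gene G6pdx rose (log2 fold change 0.22 ± 0.041, adjusted p = 0.00187). Tkt of the non-oxidative branch was at 346, 359 and 350.0 CPM in the parent and 296, 288 and 295 CPM in the NDI1 line (log2 fold change -0.26 ± 0.027, adjusted p = 2.46e-05). Ftl1, the ferritin light chain, was lower (log2 fold change -0.21 ± 0.024, adjusted p = 3.79e-05).

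The other stress programmes were divided. In the mitochondrial unfolded protein response 6 of 19 genes were called (31.6%, against 17.4% of all genes), 3 in each direction, and 2 of the calls were made in all 6 fits without a well. Hspa9, the mitochondrial Hsp70, was higher (log2 fold change 0.17 ± 0.025, adjusted p = 0.000384). Among 20 endoplasmic reticulum stress genes 8 were called (40.0%, against 17.4%), 5 higher and 3 lower, with Creld2 (log2 fold change 0.27 ± 0.048, adjusted p = 0.00122) and the chaperone gene Hspa5 (log2 fold change 0.16 ± 0.027, adjusted p = 0.00128) among the higher. Of 16 cytosolic heat shock genes 7 were called (43.8%, against 17.4%), 5 higher and 2 lower, with Hspa4l (0.23 ± 0.034), Hsph1 (0.21 ± 0.033) and Dnaja1 (0.18 ± 0.030) rising by 1.13- to 1.17-fold. Of 19 p53 targets 1 was called (5.26%, against 17.4%), and 4 with all 33 control libraries. The count fell to 2 for the mitochondrial response and 4 for the heat shock genes without parent replicate 3, and to 2 and, for endoplasmic reticulum stress, 5 without parent replicate 2. The mitochondrial response had 3 calls without parent replicate 1 or NDI1 replicate 2, and 3 in DESeq2.

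Sterol synthesis had the highest share of members called in a single direction among the 36 lists examined. Of 24 genes 16 were called, all higher (66.7%, against 8.14% of all genes), and the median log2 fold change over the 24 was 0.20. The direction was shared along the pathway from its entry to its late steps. Hmgcs1, of the first committed step, was at 93.4, 107 and 101 CPM in the parent and 128, 130.4 and 129 CPM in the NDI1 line (log2 fold change 0.37 ± 0.042, adjusted p = 5.01e-05). Cyp51, the lanosterol demethylase gene, was at 72.1, 77.1 and 75.8 CPM in the parent and 105, 104 and 100.2 CPM in the NDI1 line, the largest change of the list (log2 fold change 0.46 ± 0.039, adjusted p = 3.98e-06), and overlaps Akap9, with which its reads could be shared. In both genes the lowest NDI1 well was above the highest parent well. Fdps (0.26 ± 0.033), Sqle (0.23 ± 0.032), Msmo1 (0.25 ± 0.039) and Lss (0.20 ± 0.038) rose between 1.15- and 1.19-fold, and Insig1, a sterol-sensing retention protein, by 1.14-fold (0.19 ± 0.039). Srebf2, encoding the transcription factor SREBP-2 that drives the pathway, was slightly higher (log2 fold change 0.11 ± 0.026, adjusted p = 0.00921), a call lost without parent replicate 3 (adjusted p = 0.0684). Without parent replicate 3, 9 of the 24 were called, and these same 9 calls were made in all 6 fits without a well. The sterol element TCACNCCAC, searched on both strands after the data were seen, was in 1.22% of promoters and 1 of 16 in this list, that of Hmgcs1 (chr13:119690101-119690350, plus strand), shown with the match in capitals.
Hmgcs1: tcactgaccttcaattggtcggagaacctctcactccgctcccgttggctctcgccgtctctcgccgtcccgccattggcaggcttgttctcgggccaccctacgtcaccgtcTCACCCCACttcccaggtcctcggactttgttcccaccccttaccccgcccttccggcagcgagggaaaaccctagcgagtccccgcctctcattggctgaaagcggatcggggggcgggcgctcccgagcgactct

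Interferon-stimulated and antigen presentation genes were lower where they were called. Of 29 tested, 8 were called, all lower (27.6%, against 9.27% of all genes), with a median log2 fold change of -0.16. H2-D1, a major histocompatibility complex class I heavy chain, was at 499, 499 and 488 CPM in the parent and 395, 399.8 and 381 CPM in the NDI1 line, with the groups far apart against their spread (log2 fold change -0.34 ± 0.028, adjusted p = 3.21e-06). The class I light chain gene B2m was at 299, 314 and 304 CPM in the parent and 263, 271 and 271 CPM in the NDI1 line (log2 fold change -0.19 ± 0.028, adjusted p = 0.000402). The immunoproteasome genes Psmb8 (log2 fold change -0.45 ± 0.079, adjusted p = 0.00139) and Psmb9 (log2 fold change -0.76 ± 0.17, adjusted p = 0.0065), which overlaps Tap1, and Ifi27, given above, were lower too. Oas1a, an antiviral synthetase gene, fell from 66, 104 and 87 counts to 34, 64 and 44 (log2 fold change -0.92 ± 0.23, adjusted p = 0.0135), without passing when parent replicate 2 or NDI1 replicate 1 was left out (adjusted p up to 0.0767). H2-K1 (-0.11 ± 0.029) lost its call in 3 of the fits without a well (adjusted p up to 0.0778). Isg15, Ifit1, Gbp2 and Oasl2 were not called, with log2 fold changes of 0.18, 0.02, 0.01 and 0.01. Of 9 leukocyte markers listed, Lyz2 and Cd52 had 0 counts and 5 others, among them Ptprc, at most 5 counts in any library, whereas Cd68 had 71 to 127 counts and Cd14 had 296 to 487. Their summed level was 18.3 to 20.7 CPM in the parent and 19.0 to 26.8 CPM in the NDI1 line.

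The interferon element, searched as a pair of GAAA runs with any 2 bases between them, was found, on either strand, in the same upstream window of 3.46% of all genes, 11 of 23 interferon-stimulated genes and 2 of the 6 called lower that had a promoter sequence. The promoter of Oas1a (chr5:120907526-120907775, minus strand) is shown since it holds 2 overlapping matches, in capitals, just before the start.
Oas1a: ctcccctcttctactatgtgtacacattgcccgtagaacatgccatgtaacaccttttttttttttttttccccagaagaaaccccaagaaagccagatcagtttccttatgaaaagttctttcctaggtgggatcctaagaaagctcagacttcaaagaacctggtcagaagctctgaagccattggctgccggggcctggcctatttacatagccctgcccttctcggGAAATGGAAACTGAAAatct
B2m held the element too, and Isg15, Ifit1, Ifit3 and Cxcl10, which held it, were not called.

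Acta2, Tagln and Cnn1, which encode contractile proteins of myoepithelial cells, fell. Of 7 basal and myoepithelial markers tested 3 were called, all lower (42.9%, against 9.27% of all genes). The other 4, Krt17, Oxtr, Mylk and Itga6, were not called, with log2 fold changes of -0.47, 0.32, 0.01 and 0.09. Acta2, smooth muscle actin, was abundant at 334, 313 and 313 CPM in the parent and 213, 217 and 219 CPM in the NDI1 line, and was 1 of the genes with the lowest p in the comparison (log2 fold change -0.57 ± 0.030, adjusted p = 3.89e-08). Tagln was at 16.8, 14.6 and 16.1 CPM in the parent and 10.997, 9.44 and 8.62 CPM in the NDI1 line (log2 fold change -0.72 ± 0.094, adjusted p = 0.000154). Cnn1, calponin, fell from 78, 75 and 61 counts to 19, 32 and 38 (log2 fold change -1.33 ± 0.24, adjusted p = 0.00147). In each the groups were apart by more than their spread, and all 3 calls held in every fit without a well. Krt5, Krt14 and Trp63, which define basal cells, had at most 24 counts in any library and were not tested. Ccn2, a matrix-associated target of YAP/TAZ and TGF-β signalling, was at 303, 288 and 309.8 CPM in the parent and 210.3, 201 and 218 CPM in the NDI1 line (log2 fold change -0.52 ± 0.034, adjusted p = 3.44e-07). Acta2 stood below 7 CPM in 8 of the 11 control lines (all but MYAZ6_6g, the parent and the NDI1 line), so the decrease left a level far above most of the panel. Tagln overlaps Pcsk7 on the opposite strand, and whether the counting used strand was not given in the sources used here. The same limit holds for other named genes, among them Adgra2 (with Brf2), Atf5 (Nup62 and Il4i1), Aldh1l2 (D10Wsu102e), Ppp1r15a (Tulp2) and B2m (Patl2).

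Of 17 collagen and laminin genes 8 were called (47.1%, against 17.4% of all genes), 2 higher and 6 lower (35.3%, against 9.27%), and 9 were not called. The laminin chains Lamc1 (log2 fold change -0.23 ± 0.026, adjusted p = 4.41e-05), Lamb1 (log2 fold change -0.19 ± 0.025, adjusted p = 0.000204) and Lama5 (log2 fold change -0.16 ± 0.026, adjusted p = 0.000693) fell together, to between 0.853 and 0.893 times the parent. Col6a2, a chain of collagen VI, rose from a low level (log2 fold change 0.74 ± 0.14, adjusted p = 0.00214). Of 11 integrins 5 were called (45.5%, against 17.4%), 4 lower and 1 higher, with Itgb1 (-0.09 ± 0.025) and Itga2 (1.09 ± 0.32) both losing their calls in at least 4 fits without a well (adjusted p up to 0.0968 and 0.139). In all, 2 integrins were called without parent replicate 1 or 3 or NDI1 replicate 1 and 3 without parent replicate 2. Of 12 mesenchymal markers 5 were called, all lower (41.7%, against 9.27%), led by Fn1, fibronectin, at 1227, 1260 and 1244 CPM in the parent and 1077, 1001 and 1045 CPM in the NDI1 line (log2 fold change -0.26 ± 0.029, adjusted p = 4.98e-05). The median log2 fold change of the 12 was -0.04. Of the markers not called, 5 had a positive log2 fold change, up to 0.30. Vim, Twist1, Zeb2 and Sparc lost their calls in 1 to 5 of the fits without a well (adjusted p up to 0.183). This left 1 marker called without parent replicate 3 and 3 without parent replicate 1 or NDI1 replicate 1 or 3. Among 9 luminal markers tested 3 were called (33.3%, against 17.4%). Krt19 (log2 fold change 0.39 ± 0.063, adjusted p = 0.000786) and Krt8 (log2 fold change 0.13 ± 0.026, adjusted p = 0.00292) rose and the milk protein gene Csn3 fell from 125, 111 and 143 counts to 62, 69 and 52 (log2 fold change -1.09 ± 0.17, adjusted p = 0.000479). Of markers of other cell types, Lum, Fap, Tek and Tie1 had 0 counts in all 6 libraries. Summed over 12 fibroblast markers the level was 98.1 to 102 CPM in the parent and 107 to 110 CPM in the NDI1 line, and over 8 endothelial markers 113 and 102 to 107 CPM; their part in these results was not tested. Of the 6 fibroblast markers that could be tested 3 were called, 2 of them higher (50%, against 17.4% of all genes). That count was 1 in DESeq2 and with all 33 control libraries, and 0 to 2 in the fits without a well (0 without NDI1 replicate 1, 2 without NDI1 replicate 2 and 1 in the others). Of 2 leukocyte markers, Cd14 was called higher (log2 fold change 0.39 ± 0.10), but not without parent replicate 1 or NDI1 replicate 1, and both were called with all 33 control libraries. Of 2 endothelial markers 0 were called by edgeR or DESeq2 (2 at an unadjusted p under 0.05 in edgeR), and 1 without parent replicate 1.

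**Figure D4:**
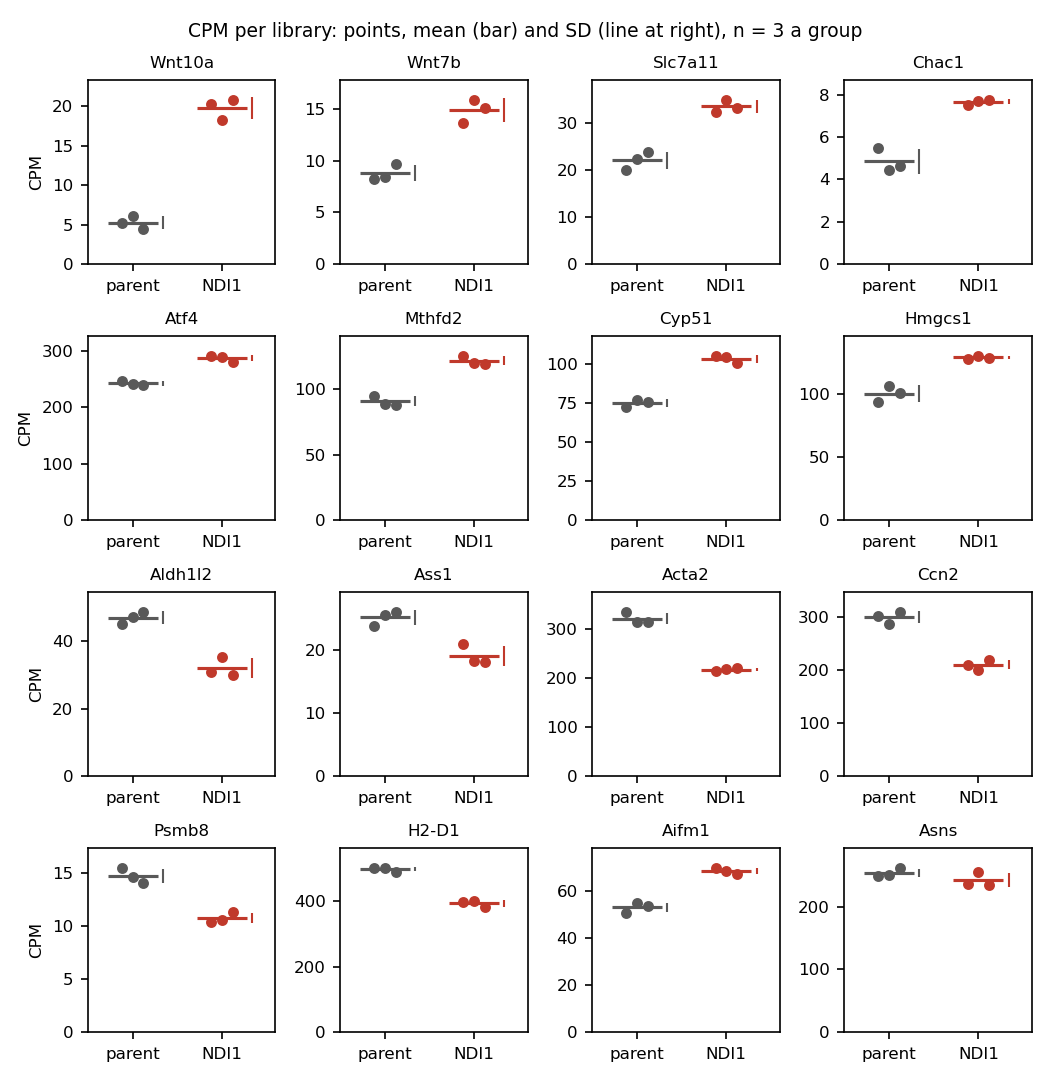
CPM in each library (points) with the group mean (bar) and SD (line at right, n = 3) for 16 genes in the parent (grey) and the NDI1 line (red), with vertical axes starting at 0. The groups do not overlap in the 15 genes that were called, which adds no separate support to their calls. They overlap in Asns, which was not called.

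Of 26 replication and mitosis genes 10 were called, all higher (38.5%, against 8.14%), with a median log2 fold change of 0.07, and 5 of the calls were made in all 6 fits without a well (6 calls without parent replicate 3 or NDI1 replicate 2). The median SE of the 26 was 0.029, so small changes could be called. Cdc6, which licenses replication origins, was at 53.1, 47.3 and 48.0 CPM in the parent and 63.4, 65.6 and 63.1 CPM in the NDI1 line (log2 fold change 0.37 ± 0.047, adjusted p = 0.000122). Birc5, survivin (log2 fold change 0.23 ± 0.036, adjusted p = 0.000544), the helicase subunit gene Mcm7 (log2 fold change 0.17 ± 0.028, adjusted p = 0.000923) and cyclin E1, Ccne1 (log2 fold change 0.19 ± 0.039, adjusted p = 0.00406), were also higher. Mki67 and Top2a had log2 fold changes of -0.03 and 0.05 and were not called. Of 22 glycolytic genes 8 were called (36.4%, against 17.4%), 5 higher and 3 lower with a median log2 fold change of 0.01, with Pfkm at 0.32 and Slc16a3, the lactate exporter, at -0.20 on the log2 scale. Of the 22, 4 and 5 were called without parent replicate 1 or 2. Of 18 hypoxia targets 9 were called (50%, against 17.4%), 4 higher and 5 lower, with a median log2 fold change of 0.01 and 6 calls without parent replicate 2. Vegfa (log2 fold change 0.24 ± 0.044, adjusted p = 0.00203) and Bnip3 (log2 fold change 0.24 ± 0.054, adjusted p = 0.00708) rose. The carbonic anhydrase gene Car12 was at 52.6, 55.9 and 51.8 CPM in the parent and 35.5, 37.3 and 36.9 CPM in the NDI1 line (log2 fold change -0.54 ± 0.045, adjusted p = 3.59e-06) and the collagen hydroxylase gene Plod2 was lower (log2 fold change -0.26 ± 0.038, adjusted p = 0.000351). Of 20 immediate early genes 4 were called, 2 in each direction (20.0%, against 17.4%).

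**Figure D5:**
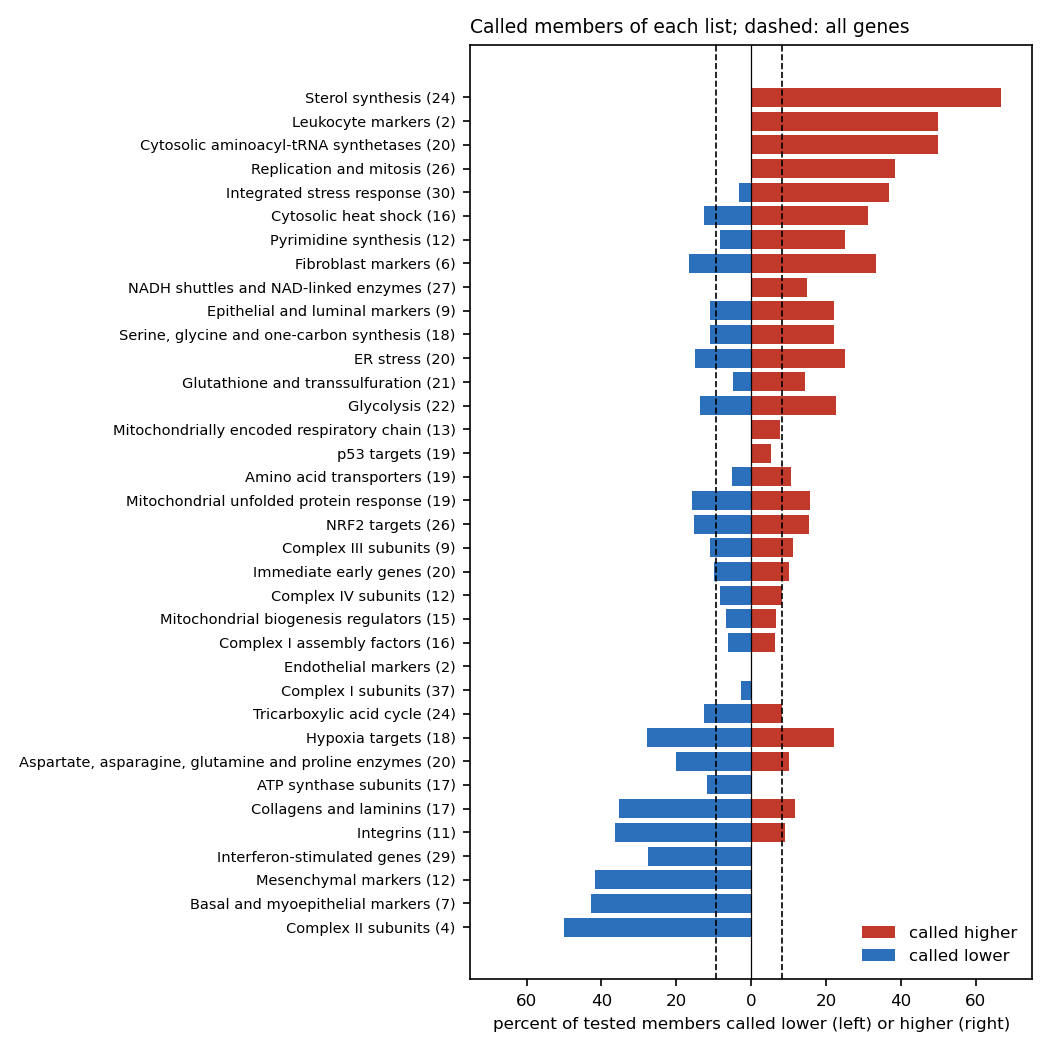
Percent of the tested members of each of 36 gene lists (number tested in brackets) called higher (red, right) or lower (blue, left) in the NDI1 line; dashed lines mark the shares of all tested genes, 8.14% higher and 9.27% lower. Sterol synthesis reaches 66.7% higher, the aminoacyl-tRNA synthetases 50% higher, and complex I subunits 2.7% lower with 0 higher; bars of lists with few members rest on few genes.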

How the data were processed

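RNA was sequenced from 3 wells each of MYAZ12_3i and MYAZ12_3i_NDI1 cells in control medium, from polyadenylated, directional libraries read in pairs. The authors aligned reads to GRCm38 with STAR and RSEM, per the submitters' processing notes, and deposited whole-number counts per gene. Whether counting used strand was not given in the sources used here. From these counts, genes passing filterByExpr were tested with edgeR 4.0.16 (TMM, quasi-likelihood F test, R 4.3.3) on the 6 libraries, with Benjamini-Hochberg adjustment over all 12841 genes; errors after ± are SE for log2 fold changes and SD for CPM, and log2 CPM used a prior count of 2. Depth was 20542717 to 25597159 counts per library, and the biological coefficient of variation was 0.0385. The script was tested on simulated data.

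Named genes were the 12 largest increases and 12 largest decreases among called genes that averaged 3 or more in log2 CPM and whose groups stood apart in every well (37 predicted genes and pseudogenes were counted only), the called members of each list with the largest changes, and genes going from 3 counts or fewer to 50 or more. The members and lists were chosen with earlier results of these data known. Alternatives were other scalings and filters, DESeq2 1.42.0, all 33 control libraries, a replicate block and leaving out each well. Promoter sequences came from RefSeq on GRCm38.p6. The sterol element was searched after the data were seen. Intervals of ratios of counts cover counting error only. A few genes that were tested and counted are not reported here by name.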

Additional observations from a re-analysis of the deposited data

How the results depend on the processing

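Of 12841 genes 2236 were called, and other settings gave 1761 (DESeq2, of 11845 genes with an adjusted p) to 2575 (all 33 control libraries, of 13899 genes). Replicate numbers did not pair the wells, with correlations of same-numbered deviations of 0.0292, 0.0445 and -0.0544, and the fit with replicate number as a block called 2245 genes. Most dependence was on single wells. Leaving out each well in turn gave 1243 to 2209 calls, 533 to 1059 higher and 710 to 1150 lower, with the fewest without parent replicate 3 and the most without NDI1 replicate 3. In the same fits, the lists together had 112 to 175 members called against 173 with all wells, nuclear respiratory chain subunits 3 to 14 against 9, complex I 0 to 1, mitochondrially encoded genes 0 to 2, synthetases 6 to 10 and sterol genes 9 to 17. Medians of log2 fold change ran from 0.07401 to 0.1239 for the integrated stress response, 0.0594 to 0.1086 for synthetases and -0.1913 to -0.11 for interferon-stimulated genes. Of the 13 mitochondrially encoded genes, 9 were called without the expression filter (where 2485 of 21752 genes were), 4 with the replicate block, 0 with DESeq2 and 0 with all 33 libraries, against 1. Of complex I, 0 were called by DESeq2 and 2 with all 33 libraries. Among genes not called, the log2 fold change of Phgdh ran from -0.05012 to 0.03471 and that of Ddit3 from -0.05065 to 0.2252 over the fits without a well, both changing sign. The cause was not tested. With 3 wells of 1 line a group, the precision was limited. Small changes lost their calls in abundant genes too, as Slc38a2 (497 CPM in the parent) and Mthfd1 (266 CPM) did in all 6 fits without a well.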
